A study of Mus musculus with 18 samples.

Results

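The genes described here encode the carriers and enzymes that take glucose apart in T cells sorted from mouse bone marrow. They form 3 pathways, glycolysis with its sugar and lactate carriers, the pentose phosphate pathway, and the tricarboxylic acid (TCA) cycle with the pyruvate dehydrogenase subunits that feed it. The members are a list of 41 gene symbols, and 37 of them have a row in the count tables of 23930 genes. Of the glycolysis list 15 of 19 genes have a row, of the pentose phosphate list 6 of 6, and of the TCA list 16 of 16. Gapdh, Pgk1, Pgam1 and Eno1, which act in the middle of glycolysis, are not analysed here.

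RNA was read with a targeted panel, Ion AmpliSeq Transcriptome Mouse Gene Expression, which amplifies 1 short piece per gene and counts the reads. The 18 libraries fall into 6 groups of 3, with CD4 and CD8 T cells each sorted by fluorescence from 3 kinds of mice. C57BL/6 mice drank zinc-enriched water for 30 days, pMT-10 mice drank the same water (induced pMT-10 mice below), and further pMT-10 mice drank control water (uninduced pMT-10 mice). In pMT-10 mice an IL-10 transgene sits behind a metallothionein promoter, which zinc induces and which is not restricted to T cells, so cells other than the sorted ones can make the transgenic IL-10. The series' design text names 3 mice of each kind, and the labels do not say which CD4 and CD8 library share a mouse. Ages are not given in the labels.

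Glucose enters through facilitative carriers, is trapped by hexokinase, committed to breakdown by phosphofructokinase, and turned into pyruvate by pyruvate kinase. Pyruvate either becomes lactate, which leaves through monocarboxylate carriers, or enters mitochondria and is oxidised in the TCA cycle. The pentose phosphate pathway branches off after hexokinase and yields NADPH and ribose phosphate. Resting T cells rely largely on mitochondrial oxidation, and activated or dividing T cells are known to raise glycolysis, so these transcripts are often read beside markers of activation.

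The libraries held between 10546798 and 18519474 reads, and 1 CPM (the count per library size, scaled by TMM factors) stood for 10.5 to 18.5 reads of the total. All 37 members passed the filter on low counts, and 33 of them lay above the median level of the 11316 genes tested. Cd4 stood between 1654 and 3405 CPM in every CD4 library and at most at 5.56 CPM in CD8 libraries, and Cd8a between 1817 and 2572 CPM in the latter. Il10 was at 16.6 to 25.98 CPM in CD4 cells of induced pMT-10 mice against 1.40 to 8.25 CPM in both CD4 control groups. In CD8 cells Il10 was at 22.4, 3.20 and 12.9 CPM in induced pMT-10 mice and had no read in the 6 control libraries. All 12 libraries of mice given zinc were read on 1 chip and the 6 uninduced libraries on the other, so the effects of chip and of zinc cannot be told apart, and sex differed together with strain. The 3 CD8 libraries numbered 2, which have the lowest totals of their groups, deviated together from their group means (r of 0.40 to 0.46 across 6637 genes, against -0.39 to 0.33 for other pairs of CD8 libraries), so CD8 results are also given without them. One CD4 library of induced pMT-10 mice, number 3, held 4 of 4 platelet marker genes at a sum of 156 CPM, against at most 3.67 CPM in every other library.

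In CD4 cells the glycolysis genes as a sum stood apart in induced pMT-10 mice. Their 15 amplicons summed to 4364 to 4748 CPM there, to 3048 to 3228 CPM in C57BL/6 mice and to 2789 to 3019 CPM in uninduced pMT-10 mice. The first range lies wholly above the other ranges. T cell marker transcripts also stood higher in these libraries, and their part in it was not tested. The 5 T cell markers, of which none was at 0, summed in CD4 cells to 6250 to 7620 CPM in induced pMT-10 mice, 4200 to 5090 CPM in C57BL/6 mice and 3950 to 4100 CPM in uninduced mice. The 2 CD4 markers, Cd4 and Zbtb7b, summed to 3310 to 3520, 2260 to 2410 and 1830 to 1920 CPM in that order, nearly all of it Cd4. In CD8 cells the same sum ran from 2887 to 3305 CPM in induced pMT-10 mice, from 2917 to 3109 CPM in C57BL/6 mice and from 2486 to 3091 CPM without zinc, and all 3 ranges overlapped. The sum of the 6 pentose phosphate genes in CD4 cells was 647 to 750 CPM in induced pMT-10 mice, above the 516 to 596 CPM of C57BL/6 mice and the 518 to 616 CPM of uninduced mice. The 16 TCA genes summed in CD4 cells to 2089 to 2292, 2078 to 2332 and 1972 to 2203 CPM in the same order, with full overlap. In CD8 cells the TCA sum was lowest in induced pMT-10 mice, at 2027 to 2243 CPM against 2473 to 2523 CPM in C57BL/6 mice, and it overlapped the 2161 to 2411 CPM of uninduced mice. These sums are descriptions and weigh the abundant amplicons most. Fewer cells of a type and less RNA per cell cannot be told apart in bulk samples of this kind.

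**Figure D1:**
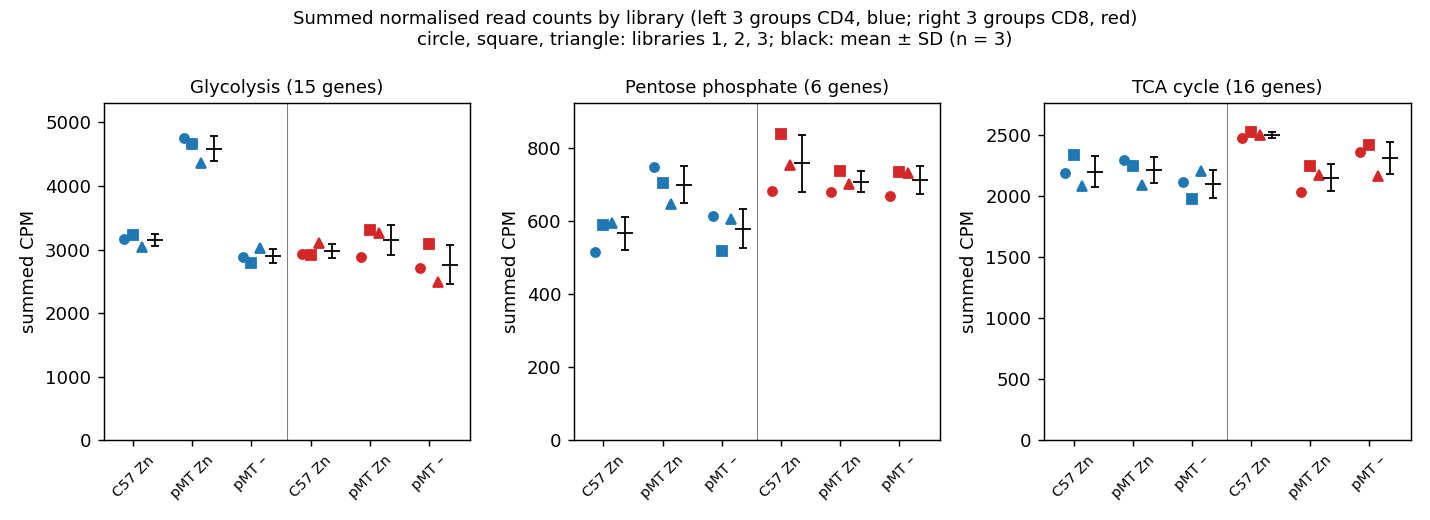
Summed normalised read counts (CPM, y axis) of the glycolysis, pentose phosphate and TCA genes in each of the 18 libraries, by group on the x axis, with circles, squares and triangles for libraries 1 to 3 and black marks for the mean and SD of 3. The CD4 libraries of induced pMT-10 mice sit at 4364 to 4748 CPM for glycolysis, above every other library, and the TCA panel shows no such gap in CD4 cells.

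The main comparison asks how these transcripts differ between induced pMT-10 and C57BL/6 mice, both given zinc water. Only the former carry the transgene, but sex differs as well, so the effects of sex and transgene cannot be told apart here. The Y-linked Ddx3y was at 110 to 206 CPM in C57BL/6 libraries and at most at 0.683 CPM in pMT-10 libraries. Xist, a transcript of female cells, was at 527 to 1003 CPM in pMT-10 libraries and at most at 2.15 CPM in CD8 libraries of C57BL/6 mice. In the 3 CD4 libraries of C57BL/6 mice it was at 0.456, 7.49 and 40.1 CPM, and the source of these reads was not tested. In CD4 cells 8 of 15 glycolysis genes rose and none fell, 0 of 6 pentose phosphate genes passed the test, and among 16 TCA genes Idh3a and Mdh2 rose while Idh2 and Pdha1 fell. A gene was called at an adjusted p under 0.05 in edgeR's quasi-likelihood test, with Benjamini-Hochberg adjustment over all genes tested. Over all genes, 9.29% were called higher and 9.40% lower in this comparison. The median log2 difference was 0.42 for glycolysis, 0.35 for the pentose phosphate pathway and 0.12 for the TCA cycle, against -0.05 for all genes tested. Of the glycolysis genes 9 had all 3 libraries of induced pMT-10 mice above all 3 of C57BL/6 mice, 1 had them all below, and 5 overlapped. Over all genes tested 18.6% lay all above and 18.8% all below.

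**Figure D2:**
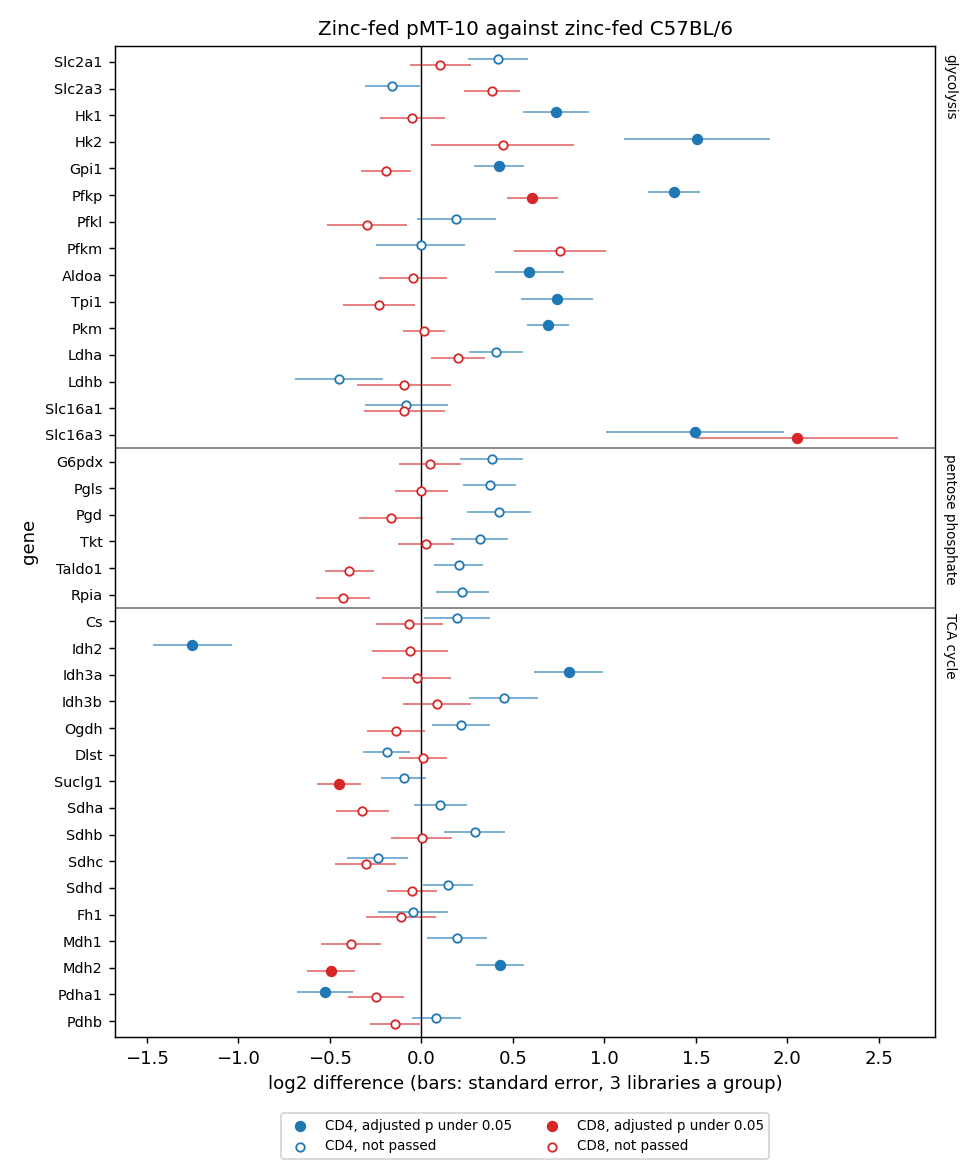
Log2 difference between induced pMT-10 and C57BL/6 mice (x axis) for each of the 37 genes (y axis, by pathway) in CD4 and CD8 cells, with bars of 1 SE and filled points for an adjusted p under 0.05. In CD4 cells 8 glycolysis points are filled and lie to the right of 0, and in CD8 cells only Pfkp and Slc16a3 are filled among the glycolysis genes.

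Hexokinase traps glucose by phosphorylating it. Hk2 (chromosome 6, 82725025 to 82774454, build GRCm38) is the inducible hexokinase. It was read at 5.62, 2.24 and 5.26 CPM in the 3 CD4 libraries of C57BL/6 mice. In those of induced pMT-10 mice it was at 9.92, 14.5 and 12.96 CPM. All libraries of the second group were higher, by 1.51 ± 0.40 on the log2 scale (SE, edgeR adjusted p = 0.0101). Without the second C57BL/6 library its adjusted p was 0.0633. Hk1, the constitutive hexokinase, stood at 45.7, 56.5 and 61.0 CPM in C57BL/6 mice and at 103, 90.6 and 77.8 CPM in induced pMT-10 mice, again without overlap (0.74 ± 0.18, edgeR adjusted p = 0.00541). Gpi1, which interconverts glucose and fructose phosphates, was at 321, 291 and 285 CPM against 431, 393 and 378 CPM, a smaller rise without overlap (0.42 ± 0.14, edgeR adjusted p = 0.0339). Its call was lost when any 1 of the 6 libraries was left out, with adjusted p of 0.0507 to 0.121.

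Phosphofructokinase sets the pace of glycolysis, and its 3 genes moved unequally. Pfkp (chromosome 13, 6579768 to 6648777, GRCm38), the platelet-type subunit, which other cell types also express, was read at 124, 119 and 124 CPM in CD4 cells of C57BL/6 mice and at 356, 277 and 324 CPM in induced pMT-10 mice. The groups lay far apart, 319 ± 39.5 against 122 ± 3.03 CPM (SD, n = 3), and the log2 difference was 1.38 ± 0.14 (SE, edgeR adjusted p = 8.33e-07). Pfkl and Pfkm, the liver-type and muscle-type subunits, overlapped between the groups (log2 differences 0.19 and -0.003, edgeR adjusted p = 0.59 and 0.997). Pfkp therefore made up 84.5 to 87.5% of the CPM of the 3 subunit genes in induced pMT-10 mice, 69.6 to 75.0% in C57BL/6 mice and 64.6 to 73.3% in uninduced mice. These are shares of amplicon reads and not of protein. The library with platelet transcripts, number 3, read 324 CPM of Pfkp and lay between the other 2 libraries of its group. Pfkp was called with each library left out in turn. The part of platelet transcripts in the Pfkp reads was not tested.

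Further down the pathway, Aldoa, the aldolase that splits fructose bisphosphate, stood at 444, 417 and 440.0 CPM in C57BL/6 mice and at 686, 676 and 597 CPM in induced pMT-10 mice (0.59 ± 0.19, edgeR adjusted p = 0.0284). The groups did not overlap, but the call was lost in 5 of 6 fits with 1 library left out, with adjusted p up to 0.0954. Tpi1, triosephosphate isomerase, was at 35.7, 38.5 and 57.7 CPM against 81.3, 82.1 and 57.2 CPM. Here the third library of each group met in the middle, so the groups overlapped although the gene was called (0.74 ± 0.20, edgeR adjusted p = 0.0101). Without the first or the second C57BL/6 library its adjusted p was 0.0688 and 0.058. Pkm (chromosome 9, 59656368 to 59679375, GRCm38), pyruvate kinase of muscle and lymphoid cells, was read at 888, 920.2 and 991 CPM in C57BL/6 mice and at 1521, 1474 and 1525 CPM in induced pMT-10 mice. All 3 libraries of the latter lay close together and far above the first group (0.69 ± 0.12, edgeR adjusted p = 0.000196). A single amplicon does not separate the splice forms of Pkm.

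The lactate end of the pathway was mixed. Slc16a3 (chromosome 11, 120948480 to 120960868, GRCm38), the lactate exporter of glycolytic cells, was at 4.33, 9.96 and 6.52 CPM in C57BL/6 mice and at 21.3, 19.6 and 17.8 CPM in induced pMT-10 mice. The groups did not overlap and the gene was called (1.50 ± 0.49, edgeR adjusted p = 0.0348), though with wide error, and 5 of 6 fits with 1 library left out lost the call (adjusted p up to 0.153). Ldha (chromosome 7, 46841475 to 46855627, GRCm38), the lactate dehydrogenase subunit that favours lactate production, was at 919.5, 960.0 and 718 CPM against 1192, 1204 and 1049 CPM. All libraries of induced pMT-10 mice were higher but the difference of 0.41 ± 0.15 missed the threshold (edgeR adjusted p = 0.0578). Slc2a1, the widely expressed glucose carrier, was at 28.2, 29.5 and 34.0 CPM against 39.8, 47.0 and 35.96 CPM, also without overlap and also not called (0.42 ± 0.16, edgeR adjusted p = 0.0792). The other 3 genes not yet named, Slc2a3 (a high-affinity glucose carrier), Ldhb (the other lactate dehydrogenase subunit) and Slc16a1 (a lactate carrier), had log2 differences from -0.45 to -0.08 and none was called. Reads of Aldoa, Tpi1, Pkm and Ldha are uncertain to the extent that near-identical processed copies of these genes share their amplicons.

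**Figure D3:**
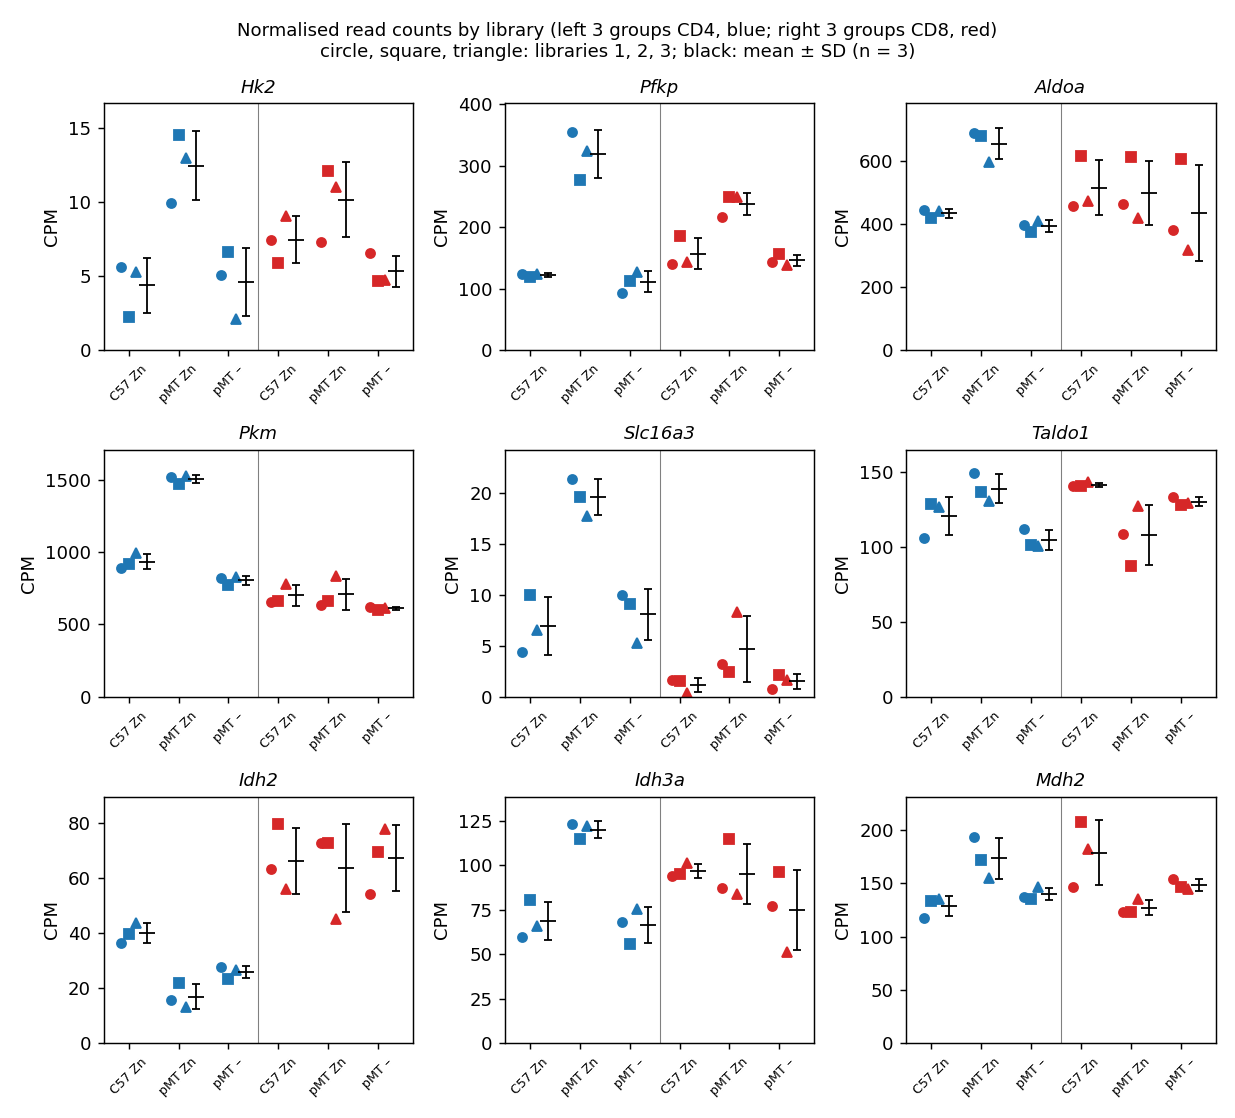
Normalised read counts (CPM, y axis) of Hk2, Pfkp, Aldoa, Pkm, Slc16a3, Taldo1, Idh2, Idh3a and Mdh2 in each library, by group on the x axis with CD4 groups in blue and CD8 groups in red, with black marks for the mean and SD of 3. Pfkp is at 277 to 356 CPM in CD4 cells of induced pMT-10 mice against at most 128 CPM in the CD4 controls, and Idh2 is lowest in the same 3 libraries.

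Promoter sequence is shown for the 3 genes with the largest rise in CD4 cells, Hk2, Slc16a3 and Pfkp, and for Ldha, a textbook target of the hypoxia factor HIF. Each run is the 250 bases before the start site from RefSeq (GRCm38.p6), 5′ to 3′ on the gene's strand, and capitals mark ACGTG, the core of the hypoxia response element, on either strand (CACGT on the strand shown). Hk2 lies at chr6:82774455-82774704 (minus strand), Slc16a3 at chr11:120948817-120949066 (plus), Pfkp at chr13:6648772-6649021 (minus) and Ldha at chr7:46845554-46845803 (plus). The Ldha window is the one with more matches of its 2 windows, and the other holds 0. Unlike those of the other genes shown, the last bases of its full 300-base window were not found in a GENCODE transcript of the gene. The windows of Slc16a3 and Ldha lie wholly inside the GENCODE gene spans given above, and that of Pfkp by 6 bases, because GENCODE places the outermost start further upstream than the RefSeq start used here.
Hk2: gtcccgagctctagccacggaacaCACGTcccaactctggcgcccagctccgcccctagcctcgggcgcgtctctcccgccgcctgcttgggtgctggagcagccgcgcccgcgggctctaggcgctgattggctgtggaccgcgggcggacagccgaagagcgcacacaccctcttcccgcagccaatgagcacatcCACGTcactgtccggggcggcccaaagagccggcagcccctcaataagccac
Slc16a3: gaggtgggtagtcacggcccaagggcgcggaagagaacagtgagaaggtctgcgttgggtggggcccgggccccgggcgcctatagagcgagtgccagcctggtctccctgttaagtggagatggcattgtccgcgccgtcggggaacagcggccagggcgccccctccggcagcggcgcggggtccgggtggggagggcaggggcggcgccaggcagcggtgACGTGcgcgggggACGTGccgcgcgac
Pfkp: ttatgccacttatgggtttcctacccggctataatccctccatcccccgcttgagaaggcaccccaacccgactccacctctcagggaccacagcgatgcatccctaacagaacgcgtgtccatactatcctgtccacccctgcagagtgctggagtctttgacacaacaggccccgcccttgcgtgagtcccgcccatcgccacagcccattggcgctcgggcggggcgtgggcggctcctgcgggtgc
Ldha: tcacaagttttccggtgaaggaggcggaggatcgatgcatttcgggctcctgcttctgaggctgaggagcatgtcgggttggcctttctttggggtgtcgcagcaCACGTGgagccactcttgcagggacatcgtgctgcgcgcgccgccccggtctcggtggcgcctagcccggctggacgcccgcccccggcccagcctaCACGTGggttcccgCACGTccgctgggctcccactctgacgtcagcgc
The Hk2 and Slc16a3 windows hold 2 matches each, the Ldha window 5, counting both strands of the palindrome CACGTG, and the Pfkp window none. RefSeq windows of 300 bases (250 before and 50 after the start site) were found for 34 of the 37 genes. ACGTG occurred in 21 of their 48 windows (43.8%) and in 19.6% of all 32851 windows. By pathway it was in 11 of 22 glycolysis windows, 1 of 7 pentose phosphate windows and 9 of 19 TCA windows, the last from 4 genes. CACGTG, the E-box bound by MYC and related factors, which contains ACGTG, was in 6 of the 48 windows (12.5%) and in 7.2% of all. Its 3 TCA windows came from 1 gene, and by gene it was in 4 of 34, beside 2187 of 27025 over all windows. TTCNNNGAA, the site form bound by STAT factors, was in 1 of the 48 windows (2.1%) and in 8.3% of all, with both strands searched. Genes with several windows count more than once, and a match describes letters and not binding.

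The pentose phosphate genes were all read slightly higher in CD4 cells of induced pMT-10 mice, with log2 differences from 0.21 to 0.43, and none was called. At an unadjusted p under 0.05 the edgeR test passed 3 of 6 and 31.0% of all genes. DESeq2's Wald test, at an adjusted p under 0.05 here and below, called 1 of 6 and 21.5% of all genes. G6pdx, the X-linked enzyme that commits glucose phosphate to the pathway, stood at 38.9, 42.5 and 50.5 CPM in C57BL/6 mice and at 63.9, 59.7 and 48.5 CPM in induced pMT-10 mice. These ranges overlapped (0.38 ± 0.17, edgeR adjusted p = 0.129). Pgls and Pgd, the next 2 enzymes of the oxidative branch, differed by 0.37 and 0.43 (edgeR adjusted p = 0.0795 and 0.0983). Tkt, Taldo1 and Rpia, of the non-oxidative branch that links pentoses back to glycolysis, differed by 0.32, 0.21 and 0.22, each without overlap between the groups.

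The TCA genes that passed the test in CD4 cells went both ways, with a fall of Idh2 and Pdha1 and a rise of Idh3a and Mdh2. Idh2 (chromosome 7, 80094846 to 80115392, GRCm38), the NADP-dependent isocitrate dehydrogenase of mitochondria, was read at 36.6, 39.8 and 43.8 CPM in C57BL/6 mice and at 15.5, 21.97 and 13.1 CPM in induced pMT-10 mice. It fell by 1.25 ± 0.22 on the log2 scale (edgeR adjusted p = 0.00028), without overlap, and was called with each library left out. Idh3a, the catalytic subunit of the NAD-dependent enzyme that runs the same step in the cycle, went the other way, from 59.5, 80.1 and 65.9 CPM to 123, 114 and 122 CPM (0.81 ± 0.19, edgeR adjusted p = 0.00415). Mdh2, the malate dehydrogenase of the cycle, rose from 118, 133 and 136 CPM to 193, 172 and 155 CPM (0.43 ± 0.13, edgeR adjusted p = 0.0254). Pdha1, the X-linked catalytic subunit of pyruvate dehydrogenase, was at 530.0, 628 and 470.0 CPM against 376, 429 and 327 CPM. It fell by 0.53 ± 0.15 (edgeR adjusted p = 0.0175) with no overlap. Mdh2 and Pdha1 each lost the call in 3 of 6 fits with 1 library left out, with adjusted p up to 0.12 and 0.117. The other 12 TCA genes had log2 differences from -0.24 to 0.45, and among them all 4 subunits of succinate dehydrogenase (Sdha, Sdhb, Sdhc and Sdhd) lay between -0.24 and 0.29.

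In CD8 cells the same comparison gave 2 of 15 glycolysis genes higher, 0 of 6 pentose phosphate genes and 2 of 16 TCA genes lower, where 5.68% of all genes were called higher and 3.13% lower. The median log2 differences were 0.02, -0.08 and -0.12 in that order, against -0.004 for all genes. Pfkp stood at 141, 185 and 144 CPM in C57BL/6 mice and at 217, 248 and 249 CPM in induced pMT-10 mice, without overlap (0.61 ± 0.14, edgeR adjusted p = 0.00803). Slc16a3 was scarce, at 1.63, 1.495 and 0.335 CPM against 3.16, 2.45 and 8.34 CPM. Its groups did not overlap and it was called (2.05 ± 0.55, edgeR adjusted p = 0.0223), but the third induced pMT-10 library carried much of the difference. The ratio of mean CPM was 4.03 with that library and 2.43 without it, and the adjusted p without it was 0.173. Without the third C57BL/6 library the adjusted p of Slc16a3 was 0.114 and that of Pfkp 0.0518.

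Suclg1, a subunit of succinyl-CoA ligase, was at 181, 171 and 166 CPM in CD8 cells of C57BL/6 mice and at 134, 129 and 116 CPM in induced pMT-10 mice, a fall of 0.45 ± 0.12 in log2 (edgeR adjusted p = 0.0237). Mdh2 was at 146, 208 and 183 CPM against 123, 123 and 135 CPM, the opposite direction to CD4 cells (-0.49 ± 0.13, edgeR adjusted p = 0.0223). Neither gene overlapped between the groups. With 1 library left out Suclg1 lost the call in 3 of 6 fits and Mdh2 in 4, with adjusted p up to 0.0976 and 0.116. Both calls were lost without the 3 CD8 libraries numbered 2, with edgeR adjusted p of 0.068 and 0.19, while Pfkp (0.73, adjusted p = 0.00517) and Slc16a3 (2.61, adjusted p = 0.0163) were called there. None of Slc2a1, Hk2, Ldha, G6pdx and Idh2 was called in CD8 cells, with log2 differences of 0.10, 0.44, 0.20, 0.05 and -0.06. Pkm, at 657, 662 and 782 CPM against 632, 659 and 834 CPM, overlapped fully. No pentose phosphate gene was called by edgeR, 2 of 6 passed at an unadjusted p under 0.05 (22.9% of all genes did), and DESeq2's Wald test called 2 (12.2% of all genes). The lowest of the 6 were Rpia and Taldo1, at -0.43 and -0.39 (edgeR adjusted p = 0.0744 and 0.0741).

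**Figure D4:**
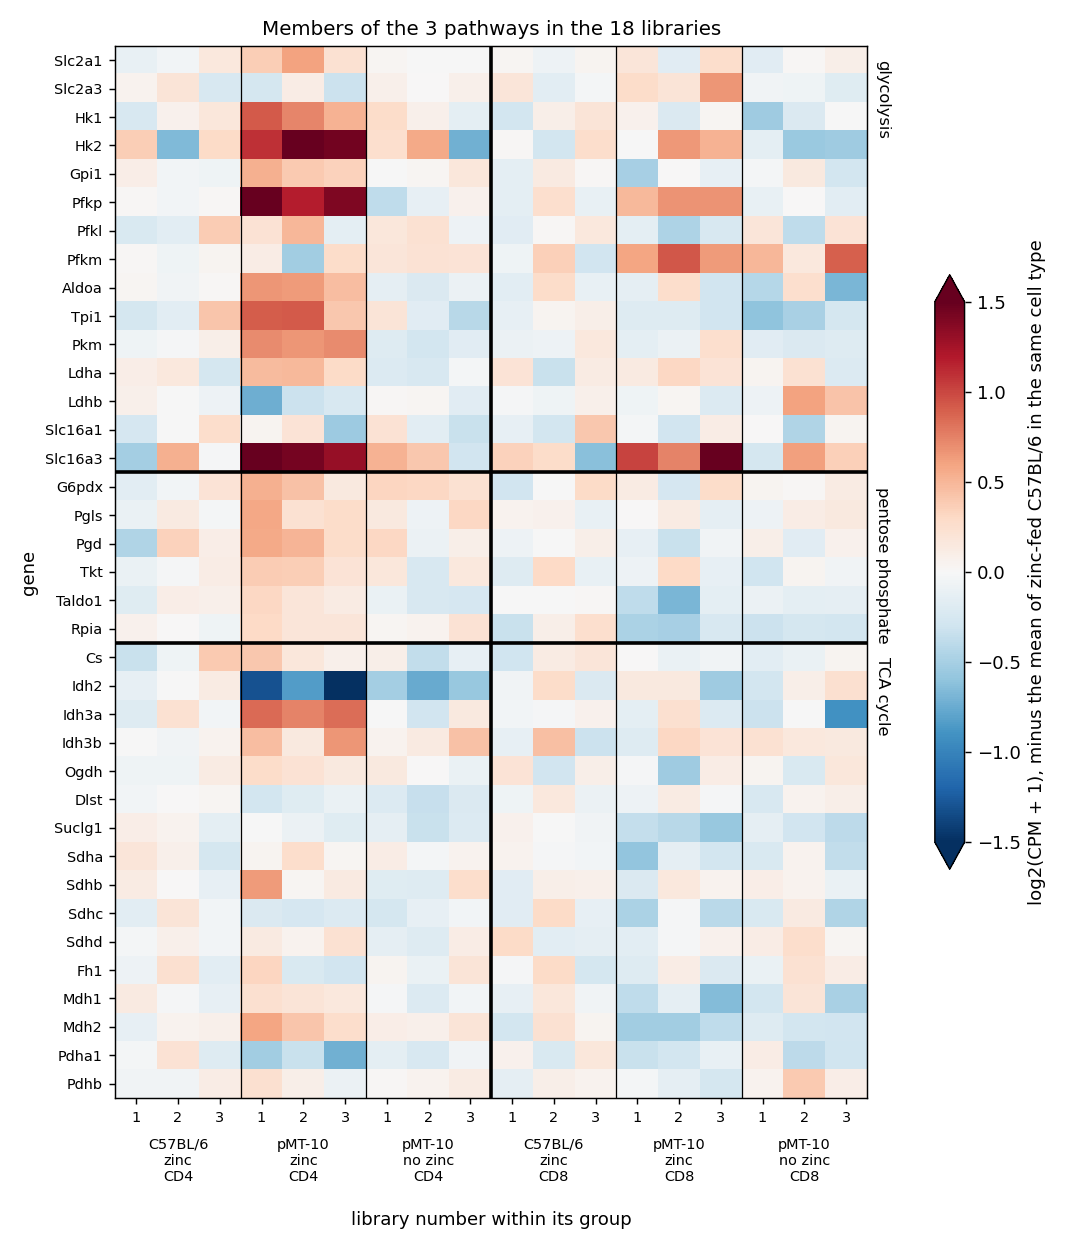
Heat map of the 37 genes (y axis, by pathway) in the 18 libraries (x axis, by group), coloured by log2(CPM + 1) minus the mean of C57BL/6 libraries of the same cell type, with colours limited to 1.5 either way. The CD4 libraries of induced pMT-10 mice show warmer colours along most of the glycolysis block and a low Idh2, and the CD8 libraries numbered 2 share deviations in several genes, such as Aldoa.

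Whether the response differed between the cell types was tested as the CD8 difference minus the CD4 difference. The test called 3 glycolysis genes and 1 TCA gene lower, that is with a smaller rise or a larger fall in CD8 cells, and 1 TCA gene higher, where 2.08% of all genes were called lower and 3.41% higher. Pfkp rose in both cell types but less in CD8 cells (difference -0.78 ± 0.20, edgeR adjusted p = 0.0251). Pkm differed by -0.68 ± 0.16 (edgeR adjusted p = 0.0184) and Tpi1 by -0.97 ± 0.28 (edgeR adjusted p = 0.0425), both with a rise in CD4 cells and no call in CD8 cells. In CD8 cells Tpi1 was at 48.1, 53.8 and 55.6 CPM in C57BL/6 mice and at 45.8, 45.7 and 42.8 CPM in induced pMT-10 mice. Mdh2 had the smallest adjusted p of the 37 (-0.92 ± 0.19, edgeR adjusted p = 0.00683), with the rise in CD4 and the fall in CD8 cells given above. Idh2 was the gene called higher (1.19 ± 0.30, edgeR adjusted p = 0.024), since it fell in CD4 cells and stood at 63.2, 79.6 and 56.2 CPM in CD8 cells of C57BL/6 mice against 72.9, 72.9 and 45.1 CPM in induced pMT-10 mice, with overlap. The pentose phosphate genes had no call by edgeR (3 of 6 at an unadjusted p under 0.05, and 21.1% of all genes), with a median of -0.48 and all 6 values below 0, while the median over all genes was 0.05.

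These differences depended on which libraries were included. Without the 3 CD8 libraries numbered 2, Pkm, Idh2 and Mdh2 were called, Gpi1, Aldoa and Idh3a were called lower in addition, and Pfkp and Tpi1 had adjusted p of 0.0558 and 0.0856. Aldoa illustrates the pattern in the libraries, at 615, 613 and 605 CPM in the 3 libraries numbered 2 and at 316 to 471 CPM in the other 6 CD8 libraries. Of the 37 genes 12 were above their group mean in all 3 of these libraries, 7 below in all 3, and 18 mixed, where 19.6% of all genes were above and 20.7% below in all 3. With 1 library left out at a time, Mdh2 was called in all 12 fits, while Pfkp lost the call in 6, Tpi1 in 9, Pkm in 3 and Idh2 in 5. Under scaling by library size alone, which shifts the median over all genes by 0.16, 1 gene was called higher and 1 lower. Over all 11316 genes that scaling called 648 higher and 120 lower.

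Zinc-fed pMT-10 mice were also set against uninduced pMT-10 mice, which carry the same transgene but differ in water and in chip. This comparison uses the same induced pMT-10 libraries as the one above, so the values are given side by side and are not independent. In CD4 cells 7 of 15 glycolysis genes rose, 1 of 6 pentose phosphate genes rose, and among 16 TCA genes 1 rose and 1 fell, with 9.38% of all genes called higher and 9.40% lower. The medians were 0.57, 0.26 and 0.17, against -0.05 for all genes. Pfkp was at 93.6, 113 and 128 CPM without zinc and differed by 1.52 ± 0.14 (edgeR adjusted p = 2.84e-07), beside 1.38 against C57BL/6 mice. Pkm, at 818, 771 and 827 CPM without zinc, differed by 0.90 ± 0.12 (edgeR adjusted p = 1.02e-05), beside 0.69. Hk2 differed by 1.43, Hk1 by 0.67, Aldoa by 0.74 and Tpi1 by 0.89, and each was called. Without the third uninduced library the adjusted p of Hk1 was 0.0648 and that of Hk2 0.0757, and without the first induced library that of Hk1 was 0.0555. Ldha was called here, with 748, 729.6 and 843 CPM without zinc (0.57 ± 0.15, edgeR adjusted p = 0.00829), and Gpi1 (0.36) and Slc16a3 (1.28) were not, with edgeR adjusted p of 0.0746 and 0.0702.

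Of the pentose phosphate genes Taldo1, transaldolase, was called in CD4 cells, at 149, 137 and 130.3 CPM in induced pMT-10 mice against 112, 101 and 100.1 CPM without zinc (0.41 ± 0.13, edgeR adjusted p = 0.0363). The call was lost when any 1 of the 6 libraries was left out. Idh3a was at 68.0, 55.7 and 75.5 CPM without zinc and was called higher in induced pMT-10 mice (0.85 ± 0.19, edgeR adjusted p = 0.00257). Idh2 stood at 27.7, 23.3 and 26.7 CPM without zinc, between the other CD4 groups and overlapping neither. The fall from there was 0.62 ± 0.22 (edgeR adjusted p = 0.0484), smaller than the 1.25 against C57BL/6 mice, and 5 of 6 fits with 1 library left out lost it, with adjusted p up to 0.221.

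In CD8 cells 1 of 15 glycolysis genes rose, and no gene of the other pathways was called by edgeR, with 5.10% of all genes called higher and 2.64% lower. That gene was Pfkp, at 144, 156 and 139 CPM without zinc and 217 to 249 CPM with it (0.70 ± 0.14, edgeR adjusted p = 0.00237), and it was called with each library left out. At an unadjusted p under 0.05 edgeR passed 0 of 6 pentose phosphate and 1 of 16 TCA genes and 21.2% of all genes. At an adjusted p under 0.05 DESeq2 called none of either and 10.5% of all genes. Slc2a3 came next, at 97.1, 96.1 and 88.5 CPM without zinc against 121, 115 and 159 CPM (0.49 ± 0.15, edgeR adjusted p = 0.052). It was called at 0.62 (adjusted p = 0.0365) without the 3 libraries numbered 2, as was Slc16a3. The CD8 minus CD4 difference of this comparison called Pfkp (-0.81 ± 0.20, edgeR adjusted p = 0.0249), Pkm (-0.69 ± 0.16, 0.0205) and Taldo1 (-0.68 ± 0.19, 0.0474) lower and no gene higher, with 1.34% of all genes called lower and 2.44% higher. Taldo1 was at 108, 87.1 and 127 CPM in CD8 cells of induced pMT-10 mice and at 133, 128 and 129 CPM without zinc, so it was read lower there and higher in CD4 cells. Of 12 fits with 1 library left out Pfkp lost the call in 6, Pkm in 4 and Taldo1 in 10, with adjusted p up to 0.0893, 0.061 and 0.133. Without the 3 CD8 libraries numbered 2 Taldo1 had an adjusted p of 0.106. No TCA gene was called by edgeR in this difference (2 of 16 at an unadjusted p under 0.05, and 18.7% of all genes).

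The control groups were then compared with each other. Between uninduced pMT-10 mice and C57BL/6 mice 0 of 37 genes were called in CD4 or in CD8 cells by edgeR or by DESeq2, and at an unadjusted p under 0.05 edgeR passed 1 and 4, beside 4.43% and 6.34% of all genes. Over all genes 0.0795% were called higher and 0.0619% lower in CD4 cells, and 0.0265% and 0.0707% in CD8 cells. DESeq2 called 0.292% of all genes in CD4 and 0.371% in CD8 cells. The median log2 difference of the 37 was -0.001 and -0.089. Idh2 in CD4 cells had the largest value, -0.63 ± 0.21, and its groups did not overlap (edgeR adjusted p = 0.767).

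CD8 cells were then set against CD4 cells of the same kind of mouse. In C57BL/6 mice 7 of 37 genes were higher in CD8 cells and 5 lower, where 9.28% of all genes were called higher and 12.9% lower. In uninduced pMT-10 mice 7 were higher and 4 lower, beside 8.94% and 12.8% of all genes. In induced pMT-10 mice 3 were higher and 10 lower, beside 13.4% and 14.7%. The median of the glycolysis genes was -0.02, -0.06 and -0.42 in C57BL/6, uninduced and induced pMT-10 mice, and that of the TCA genes 0.31, 0.23 and -0.04. The glycolysis genes called lower in CD8 cells numbered 5, 4 and 7 in the same order.

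**Figure D5:**
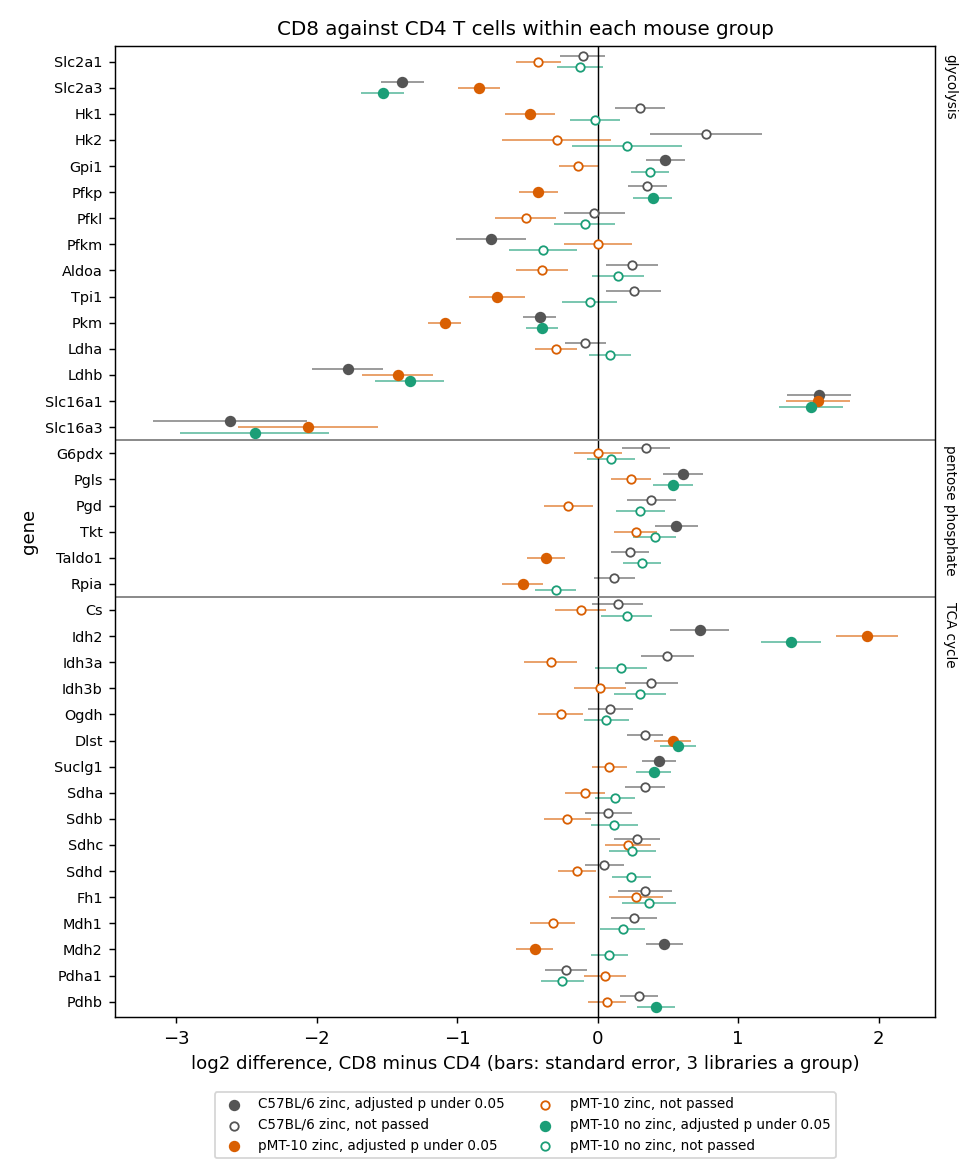
Log2 difference between CD8 and CD4 cells (x axis) for each of the 37 genes (y axis, by pathway) in the 3 kinds of mice, with bars of 1 SE and filled points for an adjusted p under 0.05. Slc16a1 and Idh2 lie to the right of 0 and Slc2a3, Ldhb, Slc16a3 and Pkm to the left in all 3 kinds, and the induced pMT-10 points of the glycolysis genes sit further left as a group, with a median of -0.42.

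Of the 37 genes 6 were called in the same direction in all 3 kinds of mice, 4 lower and 2 higher in CD8 cells. Of all genes tested 6.41% were called lower and 4.07% higher in all 3 kinds. The 6 genes are named here after their values were seen. Slc2a3, the high-affinity glucose carrier, was at 271, 299.6 and 222 CPM in CD4 and 114, 89.9 and 98.5 CPM in CD8 cells of C57BL/6 mice, a difference of -1.39 ± 0.15 (edgeR adjusted p = 7.9e-07). It was -0.84 in induced pMT-10 mice and -1.53 without zinc. Ldhb, the lactate dehydrogenase subunit that favours lactate use, was at 17.9, 17.0 and 16.1 CPM in CD4 and 4.89, 4.67 and 5.29 CPM in CD8 cells of C57BL/6 mice (-1.78 ± 0.25, edgeR adjusted p = 2.14e-05). Pkm was lower in CD8 cells by 0.41 in C57BL/6 mice, 1.09 in induced pMT-10 mice and 0.40 without zinc, the widening that the test of the difference above describes.

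The lactate carriers went opposite ways. Slc16a1 was at 22.3, 26.6 and 32.1 CPM in CD4 and 72.1, 64.9 and 104 CPM in CD8 cells of C57BL/6 mice (1.58 ± 0.23, edgeR adjusted p = 2.59e-05), with 1.57 in induced pMT-10 mice and 1.52 without zinc. Slc16a3 was lower in CD8 cells by 2.62 ± 0.55 in C57BL/6 mice (edgeR adjusted p = 0.00135), with -2.06 and -2.44 in the other kinds. As a ratio within each library, Slc16a1 over Slc16a3 was 2.7 to 5.1 in CD4 cells of C57BL/6 mice, 1.0 to 1.6 in induced pMT-10 mice and 2.6 to 4.0 without zinc. In CD8 cells it was 43.4 to 310.9, 10.2 to 26.3 and 26.7 to 110.0, wide because few Slc16a3 reads were present. Within each cell type the induced pMT-10 libraries had the lowest range of this ratio, without overlap. These ratios compare 2 amplicons and show no ratio of molecules.

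Idh2 was higher in CD8 cells by 0.73 ± 0.21 in C57BL/6 mice (edgeR adjusted p = 0.0153), by 1.92 ± 0.22 in induced pMT-10 mice and by 1.38 ± 0.21 without zinc. In CD4 cells its order was C57BL/6, then no zinc, then induced pMT-10, and the 3 CD8 groups overlapped. Of the remaining calls in C57BL/6 mice, Gpi1, Pgls, Tkt, Suclg1 and Mdh2 were higher in CD8 cells by 0.44 to 0.61 and Pfkm was lower by 0.76. In induced pMT-10 mice Hk1, Pfkp, Tpi1, Taldo1, Rpia and Mdh2 were lower in CD8 cells by 0.37 to 0.72, and Dlst, a subunit of the oxoglutarate dehydrogenase complex, was higher by 0.53. Without zinc Pfkp, Pgls, Dlst, Suclg1 and Pdhb were higher by 0.39 to 0.57. Pfkp thus stood higher in CD8 than CD4 cells without zinc (0.39 ± 0.14, edgeR adjusted p = 0.049) and lower in induced pMT-10 mice (-0.42 ± 0.14, edgeR adjusted p = 0.0279).

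Neighbouring genes of the same pathways, outside the 41, were counted in CD4 cells of induced pMT-10 against C57BL/6 mice. Of all genes 9.29% rose and 9.40% fell there, so some of these small counts lie near those shares. Of 16 other glycolysis genes tested 4 rose and 2 fell. Slc16a6 (1.59), Slc2a8 (1.20), Pfkfb3 (0.64), which makes the activator of phosphofructokinase, and Hk3 rose, the last from 0.0253 ± 0.0439 to 0.584 ± 0.393 CPM, too few reads for a fold. Adpgk, an ADP-dependent glucokinase, fell by 0.98 and Galm by 0.65. Among 7 other pentose phosphate genes Dera rose (0.54) and Prps2 fell (-0.55). Among 21 other genes of the TCA cycle and pyruvate entry 2 rose, among them Got1 (0.85), an aspartate aminotransferase, and 3 fell, Pdk1, Pdk2 and Pck2.

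Pdk1, a kinase that switches pyruvate dehydrogenase off, fell from 86.7 ± 25.4 to 22.3 ± 5.20 CPM (SD, n = 3; log2 -1.96 ± 0.22, edgeR adjusted p = 2.26e-06), and Pdk2 from 26.0 ± 2.35 to 9.26 ± 3.53 CPM (-1.50 ± 0.23, edgeR adjusted p = 6.73e-05). Transcripts of a catalytic subunit of pyruvate dehydrogenase and of 2 of its inhibitory kinases were thus lower in the same libraries. In CD8 cells Pdk1 fell by 0.82 (edgeR adjusted p = 0.0167), and no glycolysis or pentose phosphate gene of the wider lists was called. Of 24 regulators tested in CD4 cells 2 were called, both lower, beside 9.40% of all genes lower and 9.29% higher. They were Txnip, which restrains glucose uptake (-0.49), and Rptor, a subunit of the mTOR growth kinase complex (-0.43). Hif1a, the hypoxia factor, was not called (-0.06 ± 0.21, edgeR adjusted p = 0.889). In CD8 cells 1 regulator rose, Irf4 (1.26), and 1 fell, Egln1 (-0.56), beside 5.68% and 3.13% of all genes.

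Other transcripts moved in the same libraries, and their part in the results above was not tested. Of 8 dividing-cell genes tested 5 rose in CD4 cells, with a median of 1.30 (Mki67 from 15.7 ± 2.34 to 51.9 ± 13.3 CPM). In CD8 cells 6 rose, with a median of 2.51 (Mki67 from 1.98 ± 1.35 to 21.3 ± 6.06 CPM). Over all genes 9.29% were called higher in CD4 cells and 5.68% in CD8 cells against C57BL/6 mice. The NK marker list, 4 genes, summed in CD4 cells to 37.2 to 45.8 CPM in C57BL/6 mice, 4.80 to 14.97 CPM in induced pMT-10 mice and 163 to 185 CPM without zinc. Nearly all of it was Klrb1c, and Ncr1, Klra8 and Klra4 had no read in induced pMT-10 mice. The monocyte and macrophage list, 6 genes, summed to 28.2 to 43.8, 40.7 to 49.7 and 28 to 49.9 CPM in the same order. Within it Cd68 was at 20.3 to 29.4 CPM in induced pMT-10 mice against 5.58 to 11.5 CPM in both controls. Cybb did not rise and was at 14.8 to 21.6 CPM in induced pMT-10 mice. In C57BL/6 mice Cybb was at 18.2 to 35.6 CPM and without zinc at 16.2 to 37.9 CPM, with overlap. Lyz2 was at most at 2.85 CPM and Csf1r at 0.524 CPM. Without the library that held platelet transcripts, 6 glycolysis genes were called in CD4 cells, and the share of all genes called in that fit is not given here.

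The count of 8 glycolysis genes in CD4 cells fell to between 4 and 6 when 1 library at a time was left out. The share of all genes called in these fits is not given here, so a loss common to all genes cannot be told apart from one of glycolysis. It was 4 without the first or the second C57BL/6 library, and 5 without the third or without the first or second library of induced pMT-10 mice. Hk1, Pfkp and Pkm were called in each of these fits, as were Idh2 and Idh3a of the TCA cycle.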

How the data were processed

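RNA of CD4 and CD8 T cells from mouse bone marrow was extracted with the RNeasy Micro kit and amplified with the AmpliSeq panel, per the labels' protocols. The authors deposited raw counts of reads, 1 amplicon per gene, without scaling. The build is mm10 per the submitters' processing notes, and an aligner or counter is not given in the sources used here. Molecular identifiers are not mentioned. The numbers 1 to 3 only name libraries, in accession order. The design text names 3 mice of each kind, but the labels name no mouse for a library. The p-values therefore measure the spread between these libraries.

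Counts were filtered with filterByExpr, scaled with TMM and fitted in edgeR 4.0.16 (R 4.3.3) with its robust quasi-likelihood method and 6 group means over 18 libraries. P-values were adjusted by Benjamini-Hochberg over the 11316 genes tested. CPM uses TMM-scaled library sizes. Medians and counts of a pathway are descriptions. The method was tested on simulated counts. DESeq2 1.42.0 and other settings were alternatives. Gene positions come from GENCODE vM21 (GRCm38), matched by symbol. The genes printed with values in every library are those called between induced pMT-10 and C57BL/6 mice or in a difference between cell types, with Slc2a1, Hk2, Ldha, G6pdx and Idh2 always given. The members and lists were chosen with earlier results of these data known. One gene of the wider lists is counted but not reported here by name. Marker lists for T, CD4, CD8, NK, B, plasma, dendritic, erythroid, stem and progenitor cells, neutrophils, monocytes and platelets were read as levels only.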

Additional observations from a re-analysis of the deposited data

Results flagged for a closer look

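The difference between induced pMT-10 and C57BL/6 mice was not the same in CD8 and CD4 cells for 5 genes, by the edgeR test of the CD8 difference minus the CD4 difference. Pfkp (-0.78), Tpi1 (-0.97), Pkm (-0.68) and Mdh2 (-0.92) had the lower value in CD8 cells, and Idh2 (1.19) the higher. Against uninduced pMT-10 mice the same kind of test passed Pfkp (-0.81), Pkm (-0.69) and Taldo1 (-0.68). The same CD4 and CD8 libraries of induced pMT-10 mice enter both tests. The Mdh2 difference was the only one of these 8 values called in every fit with 1 library left out. Mdh2 was called higher in CD4 and lower in CD8 cells, but these calls were lost in 3 and 4 of 6 such fits. Without the 3 CD8 libraries numbered 2 its fall in CD8 cells had an edgeR adjusted p of 0.19. Against uninduced pMT-10 mice Mdh2 was not called in either cell type or in the difference. The 3 CD8 libraries numbered 2 deviated together, and their part in these differences was not tested beyond the values given without them.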

How the results depend on the processing

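No paired analysis was possible because the labels carry no replicate number or mouse that links CD4 and CD8 libraries or the groups compared. Among the genes followed singly through the alternatives, no log2 difference changed direction where the gene was called. Against C57BL/6 mice, called pentose phosphate genes numbered 1 in CD4 cells with DESeq2 and without the 3 CD8 libraries numbered 2 (0 in the report), and in CD8 cells 2 with DESeq2 and 1 with a term for those libraries. Glycolysis in CD8 cells gave 1 in a fit of the compared groups alone, and TCA genes there gave 1 with no filter on low counts, 0 in the compared groups alone and 0 without the 3 libraries. Against uninduced pMT-10 mice, TCA genes in CD4 cells (2 in the report) numbered 1 with DESeq2's size factors, 1 without robust estimation and 5 in the compared groups alone, and the pentose phosphate count was 0 by library size or with no filter. Glycolysis in CD8 cells (1 in the report) numbered 2 with DESeq2's size factors, library size, no filter, a minimum of 1 CPM in 3 libraries or the added term, and 3 with DESeq2 or without the 3 libraries. The CD8 minus CD4 difference gave, against C57BL/6 mice, 2 by library size, 10 with DESeq2 and 11 with the term. Over all genes the report called 386 higher and 235 lower there, library size 648 and 120, and the term 939 in total. Against uninduced mice the difference gave 5 with the term, which called 704 of all genes, beside 428 in the report. By library size 1 gene was called higher there and 0 lower, where the report has 0 higher and 3 lower. Over all genes library size called 537 higher and 76 lower, and the report 276 and 152. CD8 against CD4 cells without zinc gave 7 with no filter. The share of all genes called is not given here for every setting, so these counts do not show a change particular to these genes. The cause was not tested.

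With 1 library left out, calls ranged from 4 to 6 (glycolysis, CD4, against C57BL/6), 2 to 5 (TCA, CD4), 0 to 1 (pentose phosphate, CD4 and CD8), 0 to 3 (glycolysis, CD8) and 0 to 1 (TCA, CD8). Against uninduced mice they ranged from 1 to 2 (TCA, CD4), 1 to 3 (glycolysis, CD8) and were 0 throughout for the pentose phosphate genes in CD4 cells. They ranged from 1 to 7 and from 0 to 4 in the 2 tests between cell types, and from 7 to 11 for CD8 against CD4 cells without zinc. The share of all genes called in these fits is not given here, so a change common to all genes cannot be told apart from one of these genes. Of 35 called values, 13 passed in every fit with 1 library left out and 21 in every other alternative. Library size alone shifted the median over all genes by -0.108 and -0.146 in the 2 CD4 comparisons, where 36.5% and 31.3% of called genes were higher, against 49.7% and 49.9% with TMM. It called 7 of the 37 genes higher and 2 lower, and 8 and 2. Over all genes it called 831 higher and 1448 lower, and 770 and 1688. The higher share was 74.9% against 64.5% in CD8 cells versus C57BL/6 mice, 57.7% against 47.6% and 31.0% against 41.2% for CD8 over CD4 cells in induced pMT-10 and uninduced mice, and 84.4% against 62.2% and 87.6% against 64.5% in the 2 differences between cell types. The alternatives without or with a term for the 3 libraries were chosen after seeing the data. Genes of few reads, such as Slc16a3 and Hk2, are limited most by depth.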

Other observations

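Values of the 37 genes that belong to no comparison are few. Their reads together made up 0.679 to 0.729% of all reads in CD4 libraries of induced pMT-10 mice and 0.548 to 0.633% in the other 5 groups. Ldha over Ldhb, as a ratio of CPM within a library, was 44.6 to 56.5 in CD4 cells of C57BL/6 mice, 73.7 to 121.7 in induced pMT-10 mice and 42.1 to 56.2 without zinc. In CD8 cells the ratio was 136.9 to 189.7, 187.5 to 221.7 and 100 to 177.5 in the same order. Hk2 took 3.8 to 11% of the CPM of Hk1 and Hk2 together in CD4 cells of C57BL/6 mice and 8.8 to 14.3% in induced pMT-10 mice, with overlap. Pfkp took 78.8 to 81.9% of the CPM of the 3 phosphofructokinase genes in CD8 cells of C57BL/6 mice, 84.2 to 86.3% in induced pMT-10 mice and 72.9 to 82.8% without zinc.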
